A study of Mus musculus with 9 samples.

Results

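The gene models described here are the least settled entries of the mouse annotation, measured in frontal cortex of wild-type (WT) mice and of mice without Neat1, the long noncoding RNA on which nuclear paraspeckles are built. GENCODE vM21 gives 3219 models the type TEC, a label for models that still await experimental proof, which mark transcribed regions with no established gene, and 327 models the type sense_intronic, which mark transcripts inside an intron of a coding gene on the same strand. Of these, 1305 had a row in the deposited counts. The 698 models analysed (610 TEC and 88 sense_intronic) were chosen by their counts, as those with 10 or more raw counts in at least 4 of the 9 libraries and more than 5 Mb from Neat1 on chromosome 19. The whole count table holds 43629 genes. No model past the count rule lay within 5 Mb of Neat1. All 9 mice were female C57BL/6. The 5 WT mice were 2, 2, 3, 4 and 4 months old and the 4 Neat1-/- mice were 3, 3, 4 and 2 months old, and the libraries were made from rRNA-depleted total RNA of dissected cortex. The knockout allele carries lacZ and polyadenylation signals just after the Neat1 start site, so most of the Neat1 sequence is still in the genome. Nothing in the labels gives litters, and p-values measure the spread between these 9 mice.

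A coding gene is transcribed whole, introns included, and its introns are removed and degraded in the nucleus. Polyadenylated mRNA libraries hold little of that intron RNA, whereas rRNA-depleted total RNA keeps part of it. A model inside an intron can therefore collect reads from the unspliced precursor of the surrounding gene (the host) as well as from any transcript of its own. The strand used in counting is not given in the sources used here, so reads of the opposite strand may count as well. Counts alone cannot tell these RNAs apart, and in tissue a smaller number of cells of a type cannot be told apart from less RNA per cell.

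Of the 698 models, 507 (72.6%) lay wholly in an intron of a coding gene, 457 on the host strand and 50 on the opposite strand. A further 133 (19.1%) lay outside all coding genes, 29 shared some bases with an exon of the host, 28 lay partly inside a coding gene and 1 was wholly exonic. Most were annotated as unspliced, with a single exon in 632. Whether the RNA itself is spliced was not tested. The median model had 2237.5 bases of exon, and the median intron that held one was 41437 bases long. The 537 models inside a coding gene belonged to 326 coding genes, 237 of which held 1 model each. Adgrb3, an adhesion receptor of synapses, held 19, and Rabgap1l and Maml3 held 9 each. The models were unevenly spread over the genome, with 317 on chromosome 1 and 78 on chromosome 9. This spread was not set against that of all annotated models of the same types. The 2 models just inside the count rule, Gm3513 and Gm38220, reached 10 counts in 4 libraries, and the 2 just outside it, Gm38167 and Gm28112, in 3. Of the members, 690 passed the filter on low counts of the test between genotypes and 8 did not. A total of 4 members reached 10 counts in no Neat1-/- library, and 0 members did so in no WT library.

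The annotated 3' ends were searched for the signal of polyadenylation. The 3' end of a mature mRNA usually carries the hexamer AATAAA or its variant ATTAAA a short way before the cleavage site. The last 150 bases of 6 models that the results below turn on are printed 5' to 3' as in the GENCODE vM21 transcript sequences (GRCm38), with any AATAAA or ATTAAA in the final 50 bases in capitals. Gm37111 (chr9:120183048-120183197, plus strand) and Gm37942 (chr1:193367318-193367467, plus strand) were lower in Neat1-/- mice. B930095G15Rik (chromosome 14, plus strand, 2 exons) and Gm38020 (chrX:103576426-103576575, minus strand) were among the most abundant. Gm37945 (chr9:102176955-102177104, plus strand) and C130089K02Rik (chr3:52057285-52057434, minus strand) had the highest ratios of WT replicates 3 and 4 to the other libraries among models with a mean of 50 or more counts.
Gm37111: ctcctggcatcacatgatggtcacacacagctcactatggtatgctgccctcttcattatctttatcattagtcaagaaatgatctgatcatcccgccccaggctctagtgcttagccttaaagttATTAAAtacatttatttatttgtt
Gm37942: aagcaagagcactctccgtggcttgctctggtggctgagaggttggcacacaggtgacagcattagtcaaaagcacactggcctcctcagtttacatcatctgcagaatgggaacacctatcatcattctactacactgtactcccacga
B930095G15Rik: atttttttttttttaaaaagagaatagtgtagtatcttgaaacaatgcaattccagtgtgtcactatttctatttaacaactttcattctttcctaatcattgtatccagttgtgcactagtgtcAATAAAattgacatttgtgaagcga
Gm38020: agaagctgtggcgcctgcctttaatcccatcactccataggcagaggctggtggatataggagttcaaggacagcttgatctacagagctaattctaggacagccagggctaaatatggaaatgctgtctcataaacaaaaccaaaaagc
Gm37945: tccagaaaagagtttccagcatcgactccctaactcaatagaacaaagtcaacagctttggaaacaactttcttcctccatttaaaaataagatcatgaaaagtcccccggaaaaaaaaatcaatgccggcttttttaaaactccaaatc
C130089K02Rik: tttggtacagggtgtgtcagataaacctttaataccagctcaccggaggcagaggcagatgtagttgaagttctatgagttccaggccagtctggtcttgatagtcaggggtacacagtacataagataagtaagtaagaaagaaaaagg

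Gm37111 carries ATTAAA 18 bases before its annotated end and B930095G15Rik carries AATAAA 19 bases before its end, while the other 4 carry neither word in that window. Across the 698 models, 183 (26.2%) had at least 1 of the 2 words in the final 50 bases. The share was 21.3% for intronic models, 33.1% for those outside coding genes, 30.7% for sense_intronic models and 57.1% for the 28 models that lie partly inside a coding gene. Among genes that passed the same count rule, the longest transcript of 73.9% of coding genes, 53.3% of lincRNA genes and 64.6% of all genes held a word there. The reverse complement of the words, searched in the same window, was found in 9.74% of the models and 12.9% of the coding genes, and the words themselves in the first 50 bases of 5.87% and 0.95%. The median GC content was 41.3% for the models and 49.9% for the coding genes. The absence of these letters from the window says nothing of how the RNA ends.

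Total counts ran from 51276067 to 64648856 per library. Neat1 stood between 60.8 and 119.9 CPM (counts scaled to a common library total with TMM factors) in WT mice and between 7.11 and 9.72 in Neat1-/- mice (log2 fold change -3.33 ± 0.19, SE). Slc17a7, the vesicular glutamate transporter of cortical excitatory neurons, stood between 770.7 and 936.2 CPM in every library. The libraries of WT replicates 3 and 4 stood apart from the other 7 in the models described here. The main comparisons of the models between genotypes are given with and without them. Some counts, gene lists and host genes are given with all libraries only. Both also held more of 7 nuclear long noncoding RNAs (summed level 6069 and 6034 CPM, against 4716 to 5394 in the other 7) and less mitochondrial mRNA (13 genes, 14299 and 13669 CPM, against 14634 to 15222). Choroid plexus markers (6 of 6 above 0 in every library) summed to 115.8 CPM in WT replicate 3 and to 15.9 to 28.2 CPM in the other 8, WT replicate 4 included. Meningeal markers (6 of 6 above 0) summed to 39.1 CPM in WT replicate 4 and to 93.6 to 253.1 CPM elsewhere. The part of these differences in the levels below was not tested.

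The models were scarce RNAs. The median model averaged 60.5 counts per library (range 6.89 to 2342) and 1.05 CPM, or 0.546 CPM per kb of exon. The 10 highest models held 15.6% of the summed level, and 82 held 50%. The highest was B930095G15Rik, a 2-exon sense_intronic model in intron 14 of Farp1, a regulator of actin at synapses, with 40.7, 37.3, 43.0, 39.2 and 40.5 CPM in WT replicates 1 to 5 and 39.5, 41.0, 41.9 and 36.3 CPM in the Neat1-/- mice. It hardly varied among libraries, WT replicates 3 and 4 included, and its log2 fold change was -0.02 ± 0.05 (SE). Per kb of exon it reached 63.1% of the level of Farp1.

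Other abundant models varied more. Gm37899, an 8717-base model in the imprinted Dlk1-Dio3 cluster of chromosome 12, measured 33.5, 29.7, 51.7, 44.5 and 26.9 CPM in WT and 30.3, 34.3, 36.1 and 35.8 CPM in Neat1-/- mice, highest in WT replicates 3 and 4. Gm38020 lies within Ftx, a noncoding gene of the X-inactivation centre, and measured 22.3, 22.6, 36.0, 37.3 and 23.4 CPM in WT against 21.9 to 26.2 CPM in Neat1-/- mice. Gm37895, Gm36952 and Gm37628, all in intron 3 of Adgrb3, averaged 22.8, 18.3 and 17.5 CPM. The sense_intronic models below B930095G15Rik were Gm10855 in Celf2 (an RNA-binding splicing factor), Gm29170 in Uchl5 (a deubiquitinase of the proteasome) and Gm38085 in Frmd4a. Gm10855 averaged 17.5 and 16.2 CPM in WT replicates 3 and 4 and between 6.998 and 10.99 CPM in the other 7 libraries, whereas Gm29170 stood between 6.96 and 8.96 CPM in all 9. Some abundant models thus had even levels across libraries and others were high in WT replicates 3 and 4.

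The intronic models were a small fraction of their hosts. Per kb of exon, the median of 504 intronic models stood at 7.38% of its host (quartiles 3.69% and 15.6%), and 9 were at or above it. The levels of model and host per kb went together across 506 intronic models (Spearman's rho 0.46, a description over models of which many share a host, and all of which share the 9 libraries). The 5 models with the highest ratio to a host sat in genes with low counts here: Gm15535 in Gm37240, Gm28229 in Gm20537, Gm37274 in Cpne1, Gm37136 in Naaladl2 and Gm38379 in Gm20388. Whether these low counts reflect the level of the host mRNA was not tested. Gm20388 was at 0 in every library, so Gm38379 has no ratio to it other than through the prior count of 0.5, and Gm37240 and Gm20537 averaged only 0.0565 and 0.0445 CPM. Gm37274, for example, averaged 2.23 CPM per kb and Cpne1 0.117 CPM per kb.

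The summed level of the 698 models was 1289, 1128, 2267, 2082 and 1175 CPM in WT replicates 1 to 5 and 1186, 1217, 1361 and 1237 CPM in the Neat1-/- mice. WT replicates 3 and 4 were the high libraries, and the other 3 WT mice overlapped the Neat1-/- mice. The WT mean was 1588 ± 543 CPM (SD, n = 5) and the Neat1-/- mean 1250 ± 76.7 CPM (SD, n = 4), and without WT replicates 3 and 4 the WT mean was 1197 ± 83.2 CPM (n = 3). WT replicates 3 and 4 were the 2 highest libraries for 456 models (65.3%), against 14.0% of all 19753 genes tested and 71 of 325 host genes (21.8%). This pair was known from an earlier account of these data to hold more counts in these models, so the shares and ratios for it are descriptions. A model was higher in those 2 libraries by a median factor of 1.85 (quartiles 1.41 and 2.40, range 0.331 to 5.67), whereas the median host gene stood at 1.02 times its level in the other libraries (quartiles 0.972 and 1.08). A total of 58 models were lower in those 2 libraries than in the rest.

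**Figure D1:**
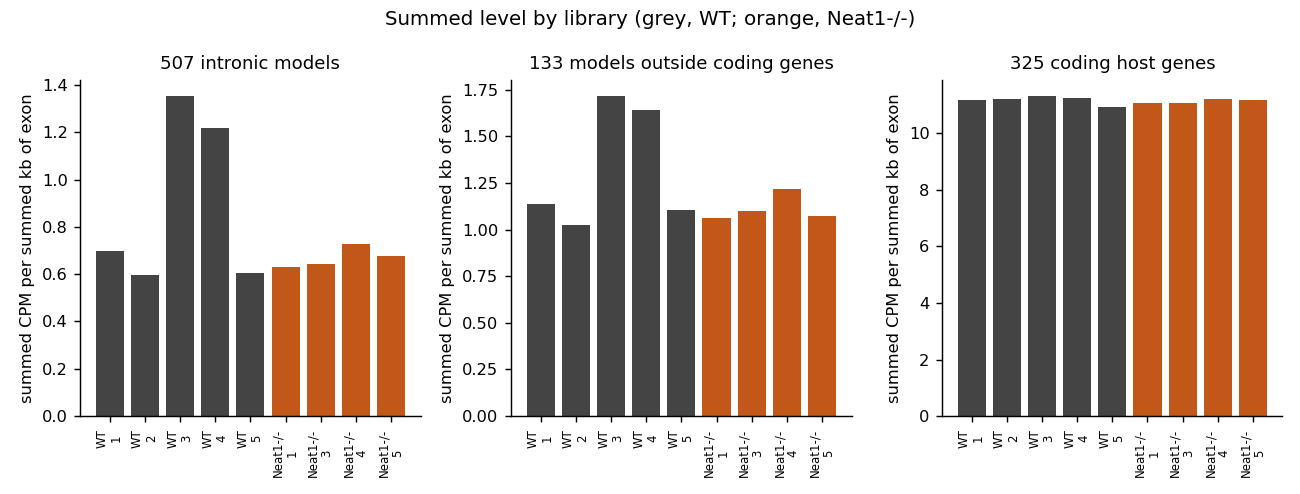
Summed level per library, in CPM per summed kb of exon, for the 507 intronic models, the 133 models outside coding genes and the 325 coding host genes; each bar is 1 mouse and every axis starts at 0. The intronic models stood at 1.35 and 1.22 in WT replicates 3 and 4 and between 0.597 and 0.729 in the other libraries, while the host genes stayed between 10.9 and 11.3 in all 9.

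The excess in WT replicates 3 and 4 depended on where a model lay. The median ratio of those libraries to the other 7 was 2.06 for intronic models on the host strand, 1.80 for intronic models on the opposite strand, 1.43 for models outside coding genes, 1.40 for partly exonic models and 1.04 for models partly inside a coding gene. Among models outside coding genes, the 43 within an annotated noncoding gene on its strand had a median ratio of 1.78. The 20 that began within 5 kb after a coding gene on its strand had a ratio of 1.26, and the remaining 71 had 1.19. Other noncoding classes were also higher in those libraries, with median ratios of 1.30 for 1031 antisense genes, 1.46 for processed pseudogenes and 1.14 for lincRNA genes, against 0.976 for coding genes. Olfactory receptor genes, which cortex hardly uses, summed to 0.00456 and 0.00412 CPM per kb in WT replicates 3 and 4 and to 0.00305 to 0.00376 in the other 7 (chosen after their values were seen).

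Models in long introns had the larger excess. With the intronic models split by intron length into 4 groups of 126 or 127, the median ratio was 1.59 in introns of 1592 to 13482 bases, 1.87 in those of 13507 to 41437 bases, 2.43 in those of 41648 to 103850 bases and 2.34 in introns of 104856 bases or more. Spearman's rho between ratio and intron length was 0.46 over 507 intronic models, and it was -0.01 with the position of the model along its host. The level in the other 7 libraries had no such relation to intron length (rho -0.02). In CPM per kb, the excess rose with the level of the model in the other 7 libraries (rho 0.62 over 698 models, which share libraries, and of which many share a host). The highest ratio of any model, 5.67, belonged to Gm15809 in Phactr1, with a mean of 30.8 counts. Among models with a mean of 50 or more counts, Gm37945 had the highest. Gm37945, in an intron of the ephrin receptor gene Ephb1 but annotated on the opposite strand, had 4.34 and 4.04 CPM in WT replicates 3 and 4 and 0.509 to 1.09 CPM in the other 7, a ratio of 4.97. C130089K02Rik in Maml3 (ratio 4.55) and Gm38009 in Lamc1, a laminin gene (ratio 4.25), came next among models with that many counts. BC055308 in Fam174a (ratio 0.655) and AA914427 outside coding genes (ratio 0.728) were the lowest of them.

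**Figure D2:**
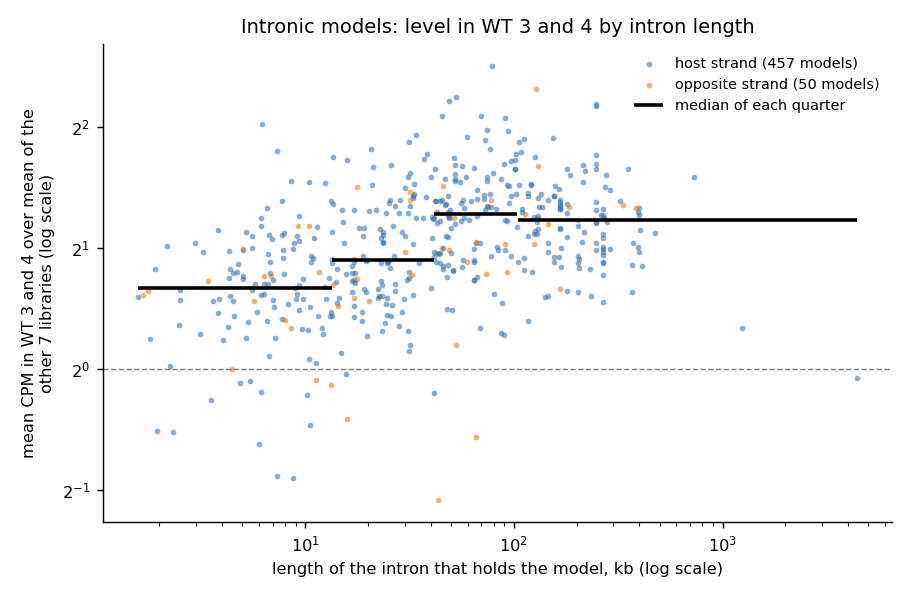
Ratio of the mean CPM in WT replicates 3 and 4 to the mean of the other 7 libraries (log scale) against the length of the intron (kb, log scale) for the 507 intronic models, blue on the host strand and orange on the opposite strand; black bars are the medians of 4 groups by intron length. The medians go from 1.59 in the shortest introns to 2.43 and 2.34 in the longer ones.

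Adgrb3 shows the pattern within a single gene. Its 19 models lie on its strand in introns 3 and 17, which are 266138 and 167335 bases long. Their summed level was 134, 118, 257, 253 and 108 CPM in WT replicates 1 to 5 and 114, 111, 132 and 132 CPM in the Neat1-/- mice, and WT replicates 3 and 4 were the 2 highest libraries for 19 of 19 models. The mRNA itself measured 228, 226, 245, 246 and 223 CPM in WT and 221 to 236 CPM in Neat1-/- mice, a ratio of 1.08 for the same libraries against a median of 2.16 for the models. In intron 3 the level per kb declined along the direction of transcription, from 6.97 CPM per kb in the other 7 libraries at 2900002M20Rik, near the start, to 0.694 at Gm37011, near the end. The rank correlation of level with distance over the 12 models of that intron was -0.85 in the other 7 libraries and -0.77 in WT replicates 3 and 4, so the slope was there in both. Intron 17 had no such slope (rho -0.07 over 7 models).

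**Figure D3:**
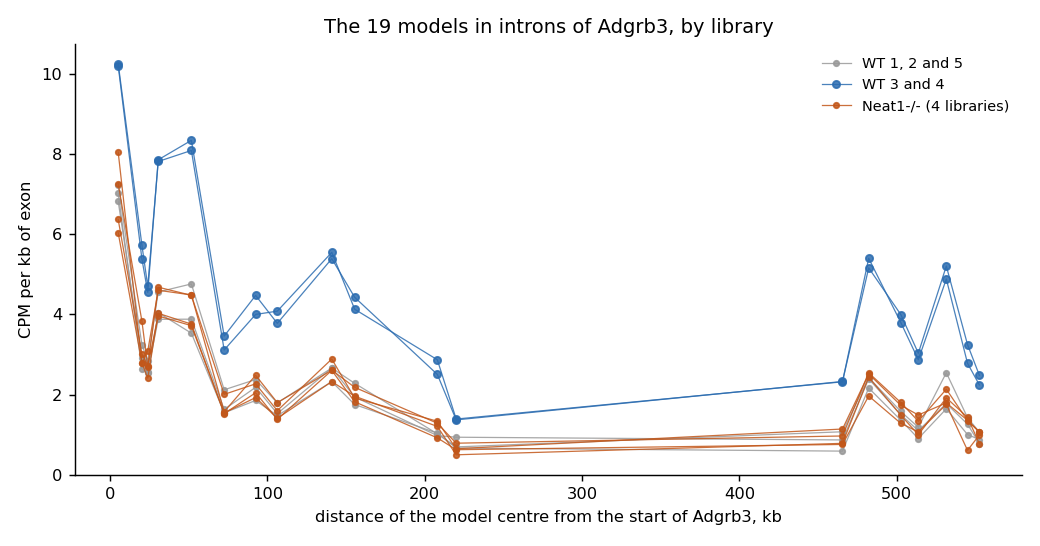
Level of the 19 models in introns of Adgrb3, in CPM per kb of exon, against the distance of the model centre from the start of the gene in kb; each line joins the models of 1 library (blue, WT replicates 3 and 4; grey, WT replicates 1, 2 and 5; orange, Neat1-/-). The blue lines lie above the other 7 at every model, and in intron 3 all lines descend from the first model to the last.

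A total of 7 introns held 4 or more models on the host strand. The rank correlation of level per kb with distance was under 0 in 6 of them in the other 7 libraries, and in 6 in WT replicates 3 and 4. These 6 include intron 17 of Adgrb3, where rho was only -0.07 and no slope was seen. The values for Fli1, Tshz3 and Xkr4 rest on 4 models each. The 42 models of the 7 introns came from 6 genes. In intron 1 of Maml3, a coactivator of Notch signalling, rho was -0.89 over 7 models, and in intron 15 of Rabgap1l it was 0.60 over 4 models. The models of Maml3 summed to 16.9 and 12.3 CPM in WT replicates 3 and 4 and to 3.20 to 4.81 CPM in the other 7. Those of Rabgap1l summed to 18.6 and 15.1 CPM against 5.63 to 8.30 CPM. Rabgap1l mRNA had a ratio of 1.03 and Maml3 mRNA a ratio of 1.04 over the same libraries. Models of 1 gene share the host and the 9 libraries and are not independent points.

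The comparison of Neat1-/- with WT mice asks which RNAs depend on Neat1. With edgeR's quasi-likelihood test, age in months as covariate and Benjamini-Hochberg adjustment over all genes, 0 of the 690 models tested passed an adjusted p of 0.05, where 0.0709% of all genes did. DESeq2 called 2, and a fit of the deposited normalized values, which hold 177 of the models, called 7 (described last). At an unadjusted p under 0.05, 112 models (16.2%) were lower in Neat1-/- mice, where the share of all genes tested was 4.03%, and 2 (0.290%) were higher, where the share was 4.27%. The median log2 fold change of the models was -0.36 and 582 of 690 were negative, against a median of -0.0002 over all genes tested. The count rested on the 2 libraries: 102 of the 112 lower models had WT replicates 3 and 4 as their 2 highest. Without those libraries, 14 of 677 models were lower (2.07%, background 3.48%) and 28 were higher (4.14%, background 3.81%), and the median was 0.06. The direction of the median thus turned with 2 WT libraries. Of the 112, 109 could be tested without them, 103 kept a negative value and 13 stayed past the same threshold. Leaving out single libraries gave from 31 of 668 models lower (without WT replicate 3) to 287 of 679 (without WT replicate 5). The backgrounds in those fits were 3.71% and 8.58%.

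**Figure D4:**
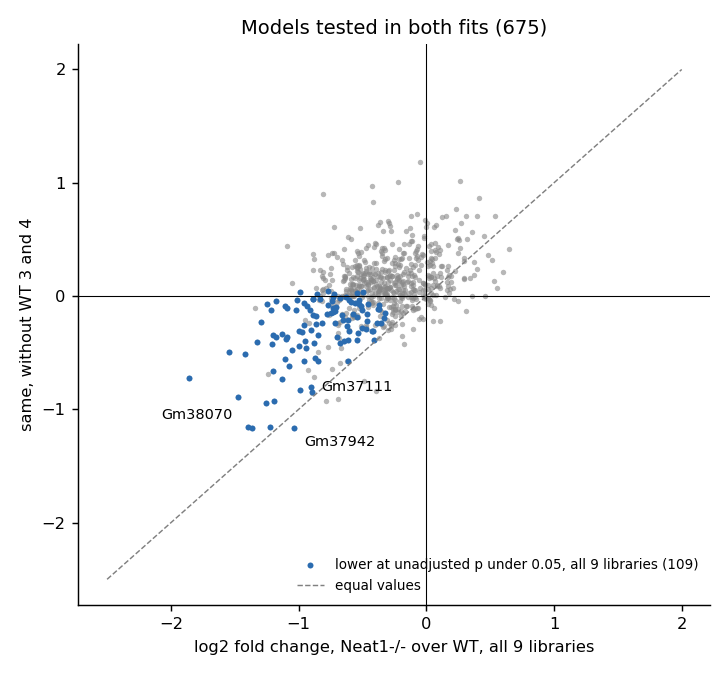
Log2 fold change (Neat1-/- over WT) of the 675 models tested in both fits, with all 9 libraries (horizontal) and without WT replicates 3 and 4 (vertical); blue points were lower at an unadjusted p under 0.05 with all 9, and the dashed line marks equal values. The cloud is shifted to the left of 0 (median -0.36) but not below 0 (median 0.06).

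The ratio of model to host gave the same picture. The median log2 ratio per kb over 536 pairs was -3.97, -4.26, -2.98, -3.13 and -4.22 in WT replicates 1 to 5 and -4.12, -4.10, -3.94 and -4.04 in the Neat1-/- mice. The WT mean was -3.71 ± 0.61 (SD, n = 5) and the Neat1-/- mean -4.05 ± 0.08 (SD, n = 4), a difference of -0.34, which became 0.10 without WT replicates 3 and 4. The host genes themselves had a median log2 fold change of -0.01. At an unadjusted p under 0.05, 15 of 320 were lower (4.69%, background 4.03%) and 11 higher (3.44%, background 4.27%). Without WT replicates 3 and 4, 16 were lower (5%, background 3.48%) and 18 higher (5.63%, background 3.81%). Of 9 mitochondrial mRNAs tested, 0 were lower and 2 higher at that threshold with all libraries. Of the 19 genes of nuclear RNA decay tested, 0 were lower and 3 higher with all libraries. Their summed levels were 540 to 563 CPM in WT and 562 to 575 CPM in Neat1-/- mice. WT replicates 3 and 4 were the 2 lowest libraries for the summed level of both sets. For nuclear RNA decay they stood at 540 and 549 CPM, against 553 to 575 CPM in the other 7. The counts for both small sets are given with all libraries only, where the backgrounds were 4.03% lower and 4.27% higher.

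In 8 of the 690 models tested every Neat1-/- library lay below every WT library, a share close to the 1.01% of all genes tested. In 1 of the 690 every Neat1-/- library lay above, a smaller share than the 1.66% of all genes tested. Gm37111 (chr9:120182564-120183197) lies 1080 bases after the end of Mobp, a myelin gene of oligodendrocytes, on the same strand and within the noncoding gene Gm38642. It measured 2.53, 1.80, 2.58, 2.14 and 1.96 CPM in WT and 1.37, 0.752, 1.17 and 1.39 CPM in Neat1-/- mice. The groups did not overlap. Its log2 fold change was -0.91 ± 0.20 (SE; edgeR p = 0.000646, adjusted p = 0.303; exact permutation p = 0.00794, two-sided, the smallest that 126 splits allow). Models named for a small p were picked in the same libraries, so their permutation p is no independent support. Without WT replicates 3 and 4 it was -0.81 ± 0.22. DESeq2 gave an adjusted p of 0.0127, and over all alternatives the adjusted p ran from 0.0127 to 0.707.

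Mobp itself measured 699, 365, 537, 494 and 557 CPM in WT and 481, 325, 380 and 480 CPM in Neat1-/- mice, with overlap between the groups (log2 fold change -0.35 ± 0.15, SE; edgeR adjusted p = 0.594). The 6 listed markers of mature oligodendrocytes summed to 2082 to 3242 CPM in WT and to 1788 to 2737 CPM in Neat1-/- mice, with overlap. At an unadjusted p under 0.05, 2 of the 6 were lower (background 4.03%), and 0 passed an adjusted p of 0.05. These counts are given with all libraries only. Gm37111 and Mobp shared part of their order of mice. WT replicate 2 was the lowest WT mouse for both. Among Neat1-/- mice, replicate 3 was the lowest and replicate 4 the next lowest for both. The order was not the same throughout, since WT replicate 1 had the highest Mobp and WT replicate 3 the highest Gm37111. The part of oligodendrocyte RNA in the level of Gm37111 was not tested.

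Gm37942 (chr1:193366840-193367467) lies in intron 1 of Camk1g, a calcium/calmodulin-dependent kinase of neurons, on the opposite strand. It measured 1.05, 1.21, 1.38, 0.837 and 1.31 CPM in WT and 0.545, 0.454, 0.831 and 0.439 CPM in Neat1-/- mice. The groups did not overlap, although WT replicate 4 and Neat1-/- replicate 4 lay next to each other. The log2 fold change was -1.04 ± 0.25 (SE; edgeR p = 0.00105, adjusted p = 0.326; exact permutation p = 0.0159, two-sided). Without WT replicates 3 and 4 it was -1.16 ± 0.23, and the lowest adjusted p of edgeR in that fit was 0.153. Camk1g mRNA had a mean of 40.8 CPM (SD 5.52) over the 5 WT mice and 36.6 CPM (SD 4.94) over the 4 Neat1-/- mice, and its log2 fold change was -0.16 ± 0.09 (SE).

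Gm38070 (chr1:40238020-40244499), in intron 1 of the interleukin-1 receptor gene Il1r1, measured 0.376, 0.338, 0.689, 0.659 and 0.509 CPM in WT and 0.187, 0.157, 0.228 and 0.191 CPM in Neat1-/- mice, again without overlap. Its log2 fold change was -1.40 ± 0.30 (SE; edgeR p = 0.000505, adjusted p = 0.264; exact permutation p = 0.0159, two-sided). That adjusted p was the smallest of any model in the fit with all libraries. The log2 fold change was -1.15 ± 0.34 without WT replicates 3 and 4. Il1r1 mRNA went the other way in value, with a log2 fold change of 0.12 ± 0.13 (SE). The counts behind Gm38070 were few, with a mean of 21.4 per library.

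The next smallest p-values among lower models belonged to Gm37258 in Enah, an actin regulator (log2 fold change -1.13 ± 0.28), D130019J16Rik outside coding genes within Gm4258 (-0.61 ± 0.16) and Gm38352 in Teddm2 (-1.37 ± 0.37). Without WT replicates 3 and 4 the values were smaller, at -0.74 ± 0.27, -0.39 ± 0.13 and -1.16 ± 0.43. D130019J16Rik was highest in WT replicates 3 and 4 (5.97 and 6.25 CPM) and the other WT mice, at 3.20 to 4.57 CPM, overlapped the Neat1-/- mice, at 2.69 to 3.63 CPM. Enah mRNA had a log2 fold change of -0.05 ± 0.06 and Teddm2 mRNA of -0.04 ± 0.12 (SE). Across 296 models with a host and a mean of 50 or more counts, the rank correlation of the log2 fold changes of model and host was 0.15 with all libraries and 0.12 without WT replicates 3 and 4, a description over pairs that share libraries.

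**Figure D5:**
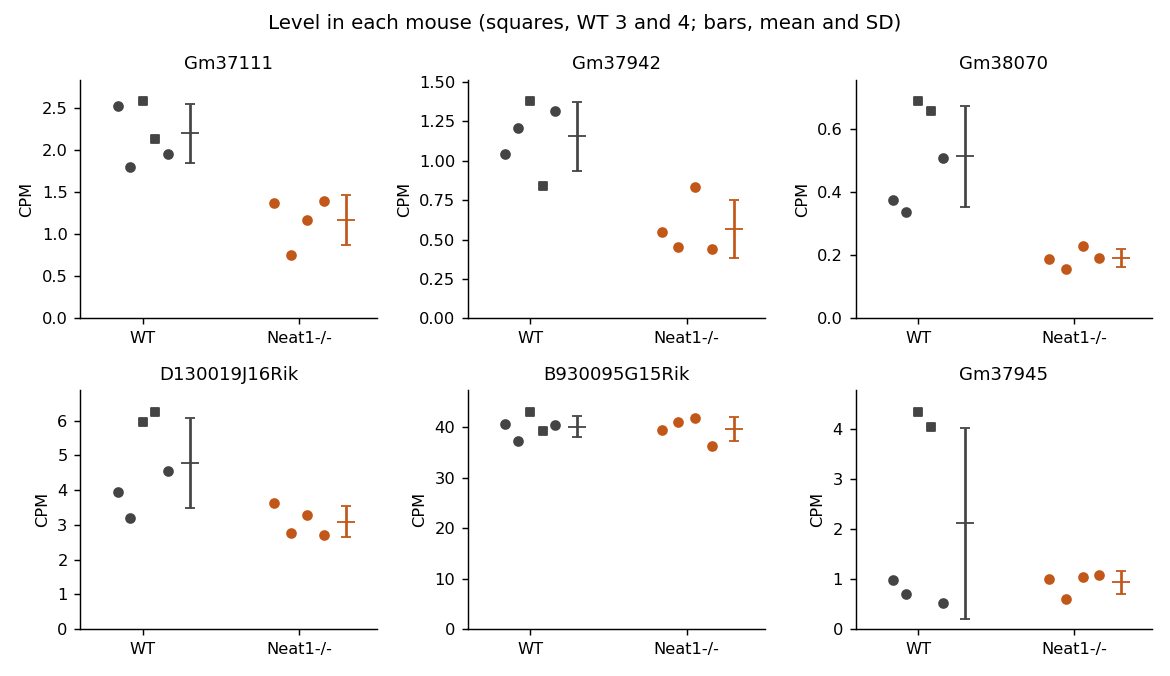
CPM in each mouse for 6 models (points; squares mark WT replicates 3 and 4), with the mean and SD of each genotype beside the points; every axis starts at 0. Gm37111, Gm37942 and Gm38070 had no overlap between genotypes, D130019J16Rik overlapped, B930095G15Rik was level near 40 CPM, and Gm37945 was high only in WT replicates 3 and 4.

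Among models with a higher value in Neat1-/- mice, 2 were past an unadjusted p of 0.05. Gm37824, which overlaps an exon of the synaptic complement-like gene C1ql3 on the opposite strand, measured 6.29, 5.32, 6.28, 5.70 and 7.85 CPM in WT and 8.09, 9.12, 11.1 and 5.35 CPM in Neat1-/- mice, with overlap at Neat1-/- replicate 5 (log2 fold change 0.39 ± 0.14, SE; edgeR p = 0.0123, adjusted p = 0.543; exact permutation p = 0.103, two-sided). Gm37292, outside coding genes, measured 0.459 to 0.706 CPM in WT and 0.611 to 1.16 CPM in Neat1-/- mice (log2 fold change 0.52 ± 0.23, SE). Both were lower in WT replicates 3 and 4 than in the other libraries, by ratios of 0.788 and 0.677. Without those 2 libraries the log2 fold changes were 0.24 ± 0.12 for Gm37824 and 0.32 ± 0.23 for Gm37292, and neither was past an unadjusted p of 0.05. Gm29170, Gm37069, Gm4430 and A930032L01Rik followed with log2 fold changes of 0.16, 0.30, 0.17 and 0.65, none of them past that threshold, and these were 0.12, 0.16, 0.17 and 0.42 without WT replicates 3 and 4. Gm37069, on the opposite strand of the calpain gene Capn2, was the model whose Neat1-/- libraries (3.419 to 3.586 CPM) all lay above the WT libraries (2.085 to 3.417 CPM).

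The normalized table deposited by the authors, adjusted for covariates, covered 13456 genes, 177 of them among the 698 models. There the median deviation of the models from their own mean was 0.02 in WT replicate 3 and -0.04 in WT replicate 4 on the log2 scale, within the -0.07 to 0.06 of the other 7 libraries. For the same 177 models the counts gave 0.67 and 0.54, against -0.29 to -0.01. The excess of WT replicates 3 and 4 is thus a feature of the counts that the deposited normalized values do not hold. In a limma fit of those values with genotype alone, which does not count the covariates already removed, 5 models were higher in Neat1-/- mice at an adjusted p under 0.05 (2.82% of 177; background 0.847%) and 2 were lower (1.13%; background 0.513%). The 7 are named after their values were seen. The 5 higher were Gm37566 in Relch (log2 difference 0.43), Gm37066 in Dpp10 (0.40), Gm29488 in Srgap2, a regulator of synapse formation (0.35), 6820402A03Rik in Kansl1l (0.25) and Gm38073 outside coding genes (0.16). The 2 lower were Gm10115 in Celf2 (-0.15) and Gm37334 outside coding genes (-0.12). In the edgeR fit of the counts, the 5 had log2 fold changes between -0.38 and 0.08 with all libraries and between 0.21 and 0.46 without WT replicates 3 and 4. Gm10115 and Gm37334 stood at -0.71 ± 0.27 and -0.52 ± 0.20 with all libraries and at -0.10 ± 0.11 and -0.07 ± 0.08 without them (SE). At an unadjusted p under 0.05, 24 of the 177 models were higher in the deposited values (13.6%; background 9.94%) and 13 were lower (7.34%; background 7.57%), and their median log2 difference was 0.03.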

How the data were processed

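Frontal cortex of 5 WT and 4 Neat1-/- mice was sequenced from rRNA-depleted total RNA, 1 library per mouse. The authors deposited raw read counts per Ensembl gene. Per the labels (the submitters' processing notes) the build was mm10, with STAR 2.5.0, HTSeq 0.8.0 and limma named, while the study's supplementary methods describe another aligner and intersection-strict counting. The authors also deposited log2 values, TMM-scaled log2 CPM with covariates removed. The strand setting is not given in the sources used here.

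Gene types, positions and sequences were taken from GENCODE vM21 (GRCm38, the same assembly as mm10). The host is the shortest protein-coding gene that contains the whole model. Raw counts of all genes that passed filterByExpr (19753) were tested with the edgeR 4.0.16 quasi-likelihood test (R 4.3.3), with TMM factors and age in months as covariate, and p-values were adjusted by Benjamini-Hochberg over all of them. The script was tested on simulated data. Standard errors are the absolute log2 fold change divided by the square root of the F statistic. Levels are CPM with TMM-scaled library sizes, divided by kb of exon where models and hosts are compared, and log2 ratios used a prior count of 0.5. Single models were also compared by an exact permutation test over 126 splits. Depth limits the precision of a model with few counts. Alternatives were DESeq2 1.42.0, limma 3.58.1 (voom with quality weights), other scalings, filters and membership rules, a fit without age, a replicate block and leaving out libraries. The models, the gene lists and the separate treatment of WT replicates 3 and 4 were chosen with earlier results of these data known. Models were named by rank of p, level, ratio to the host or ratio of WT replicates 3 and 4 to the other libraries, or for lying in the 3 genes with the most models. Replicate numbers did not pair the mice (correlation of deviations 0.04, -0.04, 0.14 and -0.08 for numbers 1, 3, 4 and 5).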

Additional observations from a re-analysis of the deposited data

How the results depend on the processing

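The count of models past an adjusted p of 0.05 was 0, and it was 2 with DESeq2 (Gm37111 and D130019J16Rik), 2 with no filter beyond any count (Gm37111 and Gm15809, an intronic model of Phactr1 named after its values were seen) and 0 to 1 when each library was left out (1, Gm15809, without WT replicate 5). With the deposited normalized values, an alternative for these counts chosen after seeing the data, 7 of 177 models passed it (5 higher, 2 lower). With an unadjusted p below 0.05, 24 had a higher value (background 9.94%) and 13 a lower one (background 7.57%). The median log2 difference turned to 0.028. The count lower at an unadjusted p under 0.05 (112 of 690, background 4.03%) was 222 of 698 with no filter (background 4.21%). It ranged from 31 of 668 without WT replicate 3 (background 3.71%) to 287 of 679 without WT replicate 5 (8.58%). It was 38 of 670 without WT replicate 4 (3.10%) and 185 of 676 without WT replicate 2 (5.37%). Without Neat1-/- replicates 1, 3 and 4 it was 52 of 694, 62 of 697 and 49 of 697 (backgrounds 3.11%, 2.68% and 3.53%). The count higher (2, background 4.27%) was 1 with DESeq2 (background 3.79%) and 1 with no filter (background 3.35%). Among models that share no exonic base with a coding gene it was 1. It was 1 to 5 when each library was left out, with backgrounds from 2.39% (without Neat1-/- replicate 1) to 6.13% (without WT replicate 5). Leaving out WT replicates 3 and 4 together gave 14 lower and 28 higher of 677 (backgrounds 3.48% and 3.81%). It turned the median log2 fold change to 0.064 and the difference in summed level (-338 CPM with all libraries) to 52.9 CPM. The difference in the log2 ratio to host turned to 0.10. Leaving out single libraries kept the sign of all 3, at -0.53 to -0.19, -453 to -168 CPM and -0.47 to -0.15. With the replicate number as a block and age, 1 model was higher (background 4.02%) and 225 were lower (background 5.78%). The numbers did not pair the mice, so this fit has no pairing behind it. The log2 fold changes of the 6 lower and the 6 higher models with the smallest p in each direction kept that direction under every alternative in which they could be fitted. These models were picked by p in the same libraries, and the alternatives reuse those mice, so the kept direction is no independent support. The median model had 60.5 counts per library. The standard error of the log2 fold change was 0.30 for Gm38070, with a mean of 21.4 counts, and 0.05 for B930095G15Rik, the highest model, and the share of it that comes from depth was not tested.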

Other observations

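The 7 models in introns of Dpp10, a subunit of neuronal potassium channels, were picked out after their values were seen. Their summed level was 17.5, 17.8, 20.6 and 19.7 CPM in the 4 Neat1-/- mice and 15.4, 15.4 and 12.6 CPM in WT replicates 1, 2 and 5, while WT replicates 3 and 4 had 35.0 and 28.4 CPM. With all libraries their log2 fold changes lay between -0.45 and -0.08, and without WT replicates 3 and 4 between 0.10 and 0.57. Dpp10 mRNA had a log2 fold change of 0.03 ± 0.03 (SE). Gm37848 in Astn1, a neuronal adhesion gene of migrating neurons, had the smallest p after Gm37942 of that fit, with 1.21, 1.17 and 0.904 CPM in WT replicates 1, 2 and 5, 1.61 to 1.85 CPM in Neat1-/- mice and 3.79 and 3.76 CPM in WT replicates 3 and 4 (log2 fold change without those 2 libraries 0.66 ± 0.18, SE). No model passed an adjusted p of 0.05 in that fit, where the lowest in edgeR was 0.153. At an unadjusted p under 0.05 there were 28 higher models of 677 (background 3.81%) and 14 lower ones (background 3.48%).

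Models with AATAAA or ATTAAA in the last 50 bases had a median ratio of WT replicates 3 and 4 to the other libraries of 1.62 (183 models), and those without had 1.91 (515 models). Among intronic models alone the medians were 2.01 (108 models) and 2.05 (399 models), and among models outside coding genes 1.18 (44 models) and 1.49 (89 models). These are descriptions over models that share the 9 libraries, and the difference was not tested.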
